A study of Rattus norvegicus with 18 samples.

Results

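Postsynaptic scaffold proteins were followed here through 23 probe sets of 10 genes, out of 31099 probe sets on a rat expression array, where 14218 genes have a probe set with 1 symbol. The members are all probe sets that the platform annotation assigns to Shank1, Shank2, Shank3, Dlg1, Dlg2, Dlg3, Dlg4, Dlgap1, Lin7a or Lin7b, each taken separately. The RNA came from rat hippocampal neurons in dissociated culture, on 18 arrays in 6 groups of 3. Lentiviruses delivered shRNAs on day 3 of culture. The control groups carried control shRNAs, and the RNAi groups carried shRNAs against MEF2A and MEF2D, transcription factors that calcium signals switch on. On day 10 all cultures received AP5, a blocker of NMDA receptors, and TTX, a blocker of sodium channels, for 1 h. They were then given 55 mM KCl, which depolarizes neurons, for 0, 1 or 6 h, so the 0 h groups are silenced neurons and not untreated ones. The labels call the arrays biological replicates without saying whether the cultures or animals were separate, so p-values measure the spread between these arrays.

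The postsynaptic density is a protein meshwork under the membrane of excitatory synapses that holds glutamate receptors in place. Dlg proteins are membrane-associated guanylate kinases that bind receptors and channels through PDZ domains. Dlgap1 links the guanylate kinase domain of Dlg proteins to the PDZ domain of Shank proteins, and Shank proteins bind Homer and the actin cytoskeleton. Lin7 proteins are small PDZ adaptors that join Cask in complexes on both sides of the synapse.

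Lin7a, Dlg2 and Shank3 were the 3 members called both as higher after 6 h of KCl in control neurons and as lower with RNAi at 6 h. Both calls use the same control 6 h arrays, so they are not separate findings. Lin7a was tested only because it was high on those arrays. How many of all probe sets had both calls was not counted. The double call served only to choose which start-site sequences are shown. They come from RefSeq on build GRCr8 and run from 250 bases before to 50 bases after an annotated start, 5′ to 3′ on the gene's strand. Of the 10 genes, 7 had such a sequence, in 8 entries. Shank1, Shank2 and Dlg3 had none, so no motif was sought for them. Capitals mark a match to TGACG on either strand, the short form of the element that CREB binds. The entries are Lin7a at chr7:44473318-44473617 (+ strand), Dlg2 at chr1:154539421-154539720 (+ strand) and Shank3 at chr7:122448073-122448372 (+ strand).
Lin7a: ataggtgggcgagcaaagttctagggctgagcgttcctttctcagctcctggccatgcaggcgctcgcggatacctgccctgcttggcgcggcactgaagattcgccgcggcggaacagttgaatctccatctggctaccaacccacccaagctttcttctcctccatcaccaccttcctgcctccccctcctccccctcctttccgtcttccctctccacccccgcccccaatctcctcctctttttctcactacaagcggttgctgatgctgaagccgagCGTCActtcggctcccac
Dlg2: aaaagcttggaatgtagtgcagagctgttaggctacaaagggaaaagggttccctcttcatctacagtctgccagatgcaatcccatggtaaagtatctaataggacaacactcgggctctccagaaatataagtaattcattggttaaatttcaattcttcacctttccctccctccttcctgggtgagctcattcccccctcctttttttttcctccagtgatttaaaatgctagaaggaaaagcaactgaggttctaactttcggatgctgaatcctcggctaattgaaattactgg
Shank3: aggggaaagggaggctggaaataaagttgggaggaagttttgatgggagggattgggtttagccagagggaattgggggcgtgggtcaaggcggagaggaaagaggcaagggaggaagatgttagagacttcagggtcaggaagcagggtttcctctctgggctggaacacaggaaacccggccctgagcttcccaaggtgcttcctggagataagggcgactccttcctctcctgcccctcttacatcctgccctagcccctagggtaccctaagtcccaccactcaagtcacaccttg
The Lin7a match lies on the reverse strand at bases 32 to 36 after the annotated start, counting the start as 0. The short form was found in 1 of the 8 member entries and in 21.2% of all 33469 start-site sequences. The full element TGACGTCA, which contains the short form, occurred in 1.83% of all sequences and in none of the 8 member entries. The MEF2 consensus occurred in 3.29% of all sequences and in none of these 8 entries. The CArG box, which serum response factor binds, occurred in 1.64% and in none of the 8. The AP-1 motif TGANTCA occurred in 7.33% and in 1 Dlgap1 entry. All motifs were searched on both strands. These are matches of letters in a short window, and no binding was measured.

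The series-wide values were as follows. Array medians lay between 240.03 and 248.02 signal units, and arrays of a group correlated at 0.9938 to 0.9979 on the log2 scale across probe sets. Mef2a was lower with RNAi by log2 differences of -1.61, -1.92 and -1.86 at 0, 1 and 6 h, and Mef2d by -0.52, -0.42 and -0.57. After 1 h of KCl, Fos had changed by 4.30 and Arc by 3.02 in control neurons. The neuronal markers Map2, Snap25 and Stmn2 were detected on every array, with lowest signals of 7001, 10109 and 14748. The astrocyte markers Gfap and Slc1a3 were also bright, at 8386 or more and 8793 or more, and the oligodendrocyte lineage markers Olig1 and Cnp lay at 5905 or more and 1826 or more. Of microglial markers Aif1 lay at 411 to 476, and of fibroblast markers Dcn at 814 to 2473. Other markers of these lists had smaller lowest signals. In the oligodendrocyte lineage Mbp lay at 485 to 1118 and Pdgfra varied widely, at 347 to 3773, while Olig2 lay at 103 to 137 and Mag at 122 to 163. The microglial markers Cd68, Itgam, Csf1r, Cx3cr1 and Tyrobp each lay at 234 or less, and Cldn5, of endothelial cells, at 90.7 to 350. In each of these last 3 lists 1 marker, Mog, Ptprc or Pecam1, lay on all 18 arrays below 72.6, the floor set at the 20th percentile of all values. The cultures thus held glial RNA beside neuronal RNA. In such bulk RNA, fewer cells of a type and less RNA per cell cannot be told apart.

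Of the 23 member probe sets, 19 exceeded the 40th percentile of their array (signals of 154 to 164) on at least 3 arrays and were tested. The 4 that did not were Dlg1 1368944_at (83.4 to 151), Dlg3 1388280_a_at (65.5 to 126), Dlg4 1371183_a_at (73.6 to 91.5) and Dlgap1 1388057_a_at (95.7 to 119). Lin7a had only 1 probe set, which passed on its 3 control 6 h arrays alone. It was therefore tested only because it was high there. Dlg3 1387393_at and 1395925_s_at passed on earlier arrays alone, 9 and 5 of them, and on no array at 6 h, which favours finding them lower at 6 h. Counts are also given without these 3, and their values without the filter. Groups were compared with limma across all 19567 probe sets that passed, and a value was called at a Benjamini-Hochberg adjusted p under 0.05. Probe sets of 1 gene read the same locus, so their calls are not separate findings.

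**Figure D1:**
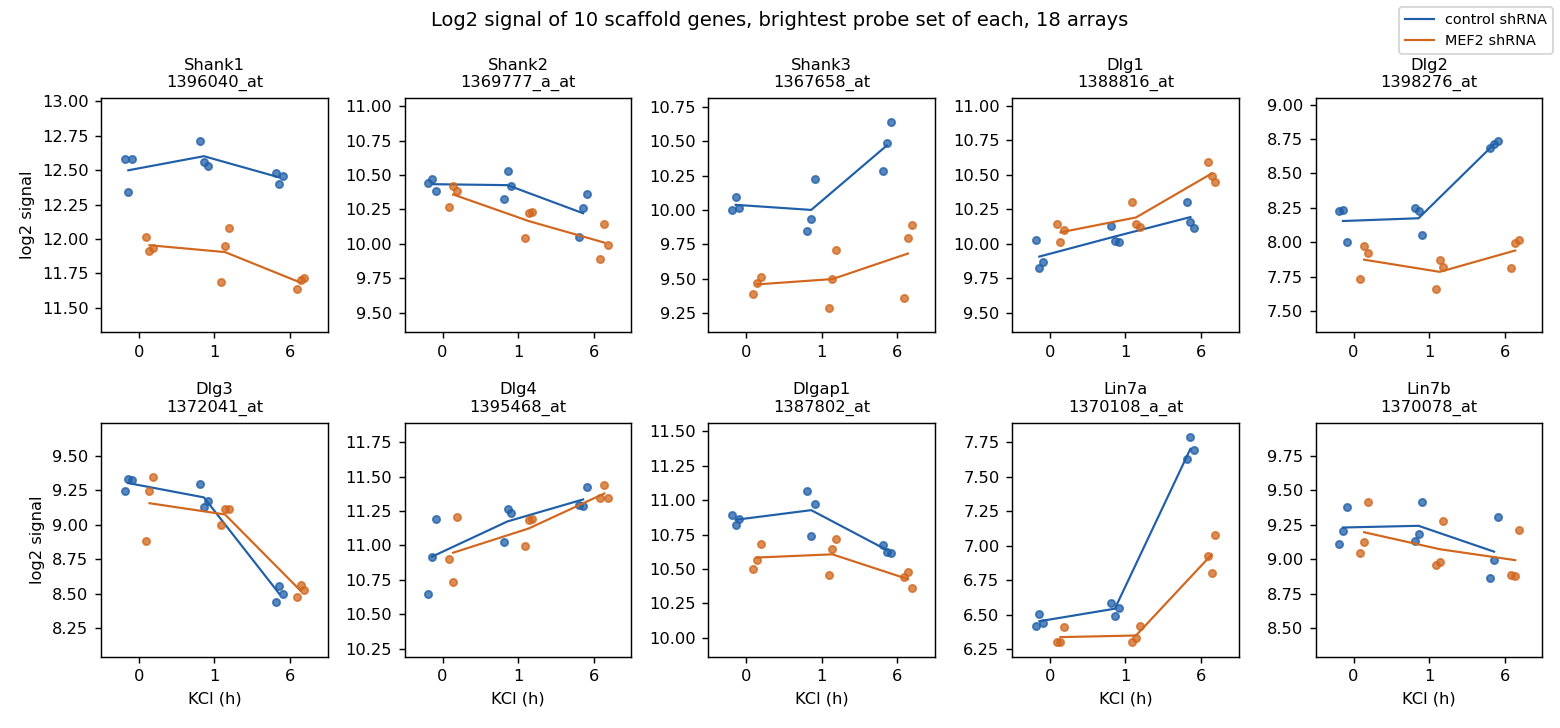
Log2 signal (y axis) at 0, 1 and 6 h of KCl (x axis) for the brightest probe set of each of the 10 genes, with 1 point per array, lines through the 3-array means, blue for control shRNA and orange for MEF2 shRNA. Every panel spans the same number of log2 units but has its own range; Lin7a and Dlg2 climb at 6 h in the control arm, Dlg3 falls in both arms, and Shank1 and Shank3 lie lower with RNAi at each time.

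The first question was what depolarization does to the scaffold genes in control neurons. After 1 h no member was called, while 2.23% of all tested probe sets were (1.22% higher and 1.02% lower). The limma changes of members ran from -0.10 to 0.40 on the log2 scale, and 1 of 19 had an unadjusted p under 0.05. After 6 h, 9 of 19 member probe sets were called, 5 higher and 4 lower, against 37.6% of all tested probe sets (15.9% higher and 21.7% lower). Without the 3 probe sets that the filter favoured, the count was 7 of 16 (43.8%), 4 higher and 3 lower. Of the 9 called, the higher ones belonged to Lin7a, Dlg2, Shank3, Dlg4 and Dlg1, and the lower ones to Dlg3 and Dlgap1. With replicate number as a block these 9 stayed called. Dlg4 1387210_at was then also called higher, and Lin7b, Shank2 1369777_a_at and Dlg3 1395925_s_at lower. The block raised the share of all probe sets called to 45.8%. The members' median change was 0.007, beside -0.004 for all probe sets.

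Lin7a, of the Lin7 adaptors, has 1 probe set, which the filter kept for its control 6 h arrays. Its signals were 85.3, 90.6 and 86.7 at 0 h, 96.0, 90.0 and 93.8 at 1 h, and 198, 221 and 207 at 6 h in control neurons. With RNAi they were 78.8, 78.7 and 85.0 at 0 h, 78.8, 80.5 and 85.3 at 1 h, and 122, 111 and 135 at 6 h. The 6 h arrays stood above all earlier arrays in both arms, and the control 6 h arrays stood above the RNAi 6 h arrays without overlap. The rise from 0 to 6 h was 2.38-fold in control neurons (log2 1.25, SE 0.07, adjusted p = 5.38e-09, 3 arrays in each group) and 1.51-fold with RNAi (log2 0.60, SE 0.07, adjusted p = 7.67e-06). At 6 h the RNAi level was 58.7% of control (log2 -0.77, adjusted p = 6.4e-06). Fitted with no filter on any of the 31099 probe sets, these Lin7a calls had adjusted p of 8.56e-08, 2.22e-05 and 2.51e-05. At 0 and 1 h the differences of -0.11 and -0.19 were not called (adjusted p = 0.335 and 0.0798), although with replicate number as a block the one at 1 h was (adjusted p = 0.0456). The test of the difference between the arms' 6 h changes gave -0.65 (SE 0.10, adjusted p = 0.0204), the only called interaction among members, where 0.143% of all probe sets were called (0.0256% higher and 0.118% lower). That call was lost when control 0 h replicate 3 was left out (adjusted p = 0.0511) and when only the 4 groups concerned were fitted (adjusted p = 0.0899). Its adjusted p ran from 0.00829 to 0.0899 over 22 alternatives and was 0.0165 with no filter. Without Lin7a, 0 of 18 members were called by limma, and 2 of all 19 had an unadjusted p under 0.05. Leaving out any control 6 h array took Lin7a below the filter, so it was not tested there. The early signals lie close to the array's low end, where folds are understated.

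Lin7b, its close relative, did not follow it. Its signals were 554, 589 and 665 at 0 h and 466, 509.7 and 632 at 6 h in control neurons, and 529, 558 and 684 and then 473, 471 and 594 with RNAi. Replicate 3 was the highest array in each of the 6 groups, and the 0 h and 6 h arrays overlapped in both arms. The 6 h changes of -0.18 and -0.20 were not called (adjusted p = 0.361 and 0.273). With the replicate block they were (adjusted p = 0.00995 and 0.00418), as were the change from 1 to 6 h in control neurons (-0.19, adjusted p = 0.00786) and the RNAi difference at 1 h (-0.17, adjusted p = 0.0241).

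In the Dlg family the members went in different directions. Dlg2, a scaffold of NMDA receptors and potassium channels, had signals of 299.6, 301 and 257 at 0 h, 305, 299 and 265 at 1 h, and 412, 421 and 425 at 6 h in control neurons. With RNAi the signals were 213, 251 and 242, then 203, 234 and 226, then 224, 255 and 259. The 3 control 6 h arrays stood above all other arrays, and the RNAi arrays overlapped between times. Dlg2 rose 1.47-fold from 0 to 6 h in control neurons (log2 0.56, SE 0.09, adjusted p = 0.000111), while its change with RNAi was 0.07 (adjusted p = 0.596). The difference between these changes was -0.49 (SE 0.12) and was not called (adjusted p = 0.185, and 0.0589 with the replicate block), so an unequal response was not shown. At 6 h the RNAi level was 58.6% of control (log2 -0.77, SE 0.09, adjusted p = 3.84e-05), and at 1 h 76.4% (adjusted p = 0.00673). At 0 h it was 82.3% of control (adjusted p = 0.0457). This last call was lost without any 1 of 12 arrays (adjusted p = 0.0513 to 0.165), namely control 0 h replicates 1 and 2, RNAi 0 h replicates 1 and 3, control 6 h replicates 1 to 3, control 1 h replicate 2, and replicates 2 and 3 of RNAi 1 h and RNAi 6 h.

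Dlg3, a scaffold prominent at young synapses, fell the most of the members. By probe set 1372041_at the control signals were 607, 646 and 641 at 0 h, 628, 560.1 and 576 at 1 h, and 347, 377 and 361 at 6 h. The RNAi signals were 472, 606 and 649.6, then 511, 553 and 555, then 356, 377 and 369. All 6 arrays at 6 h lay below all 12 earlier arrays, and the arms overlapped at 0 and 6 h. The 6 h level was 57.3% of 0 h in control neurons (log2 -0.80, SE 0.09, adjusted p = 5.07e-06) and 64.4% with RNAi (log2 -0.64, adjusted p = 5.59e-05), and RNAi differences of -0.15, -0.12 and 0.02 at the 3 times were not called. Probe set 1387393_at fell by 0.53 in control neurons and by 0.58 with RNAi (adjusted p = 0.000833 and 0.000412). Probe set 1395925_s_at, of a type that several transcripts can share, changed by -0.32 and -0.26 and was not called (adjusted p = 0.0562 and 0.114). The control change was called with the replicate block (adjusted p = 0.0343) and without control 0 h replicate 1, control 1 h replicate 1, RNAi 0 h replicate 1 or RNAi 0 h replicate 3 (adjusted p = 0.0208, 0.0463, 0.0432 and 0.0368), and the RNAi change without RNAi 0 h replicate 1 (adjusted p = 0.0395). Without the filter, through which both dimmer Dlg3 probe sets passed on earlier arrays alone, 1387393_at was still called (adjusted p = 0.00275 and 0.00153). From 1 to 6 h in control neurons 1387393_at was lower by -0.55 (adjusted p = 0.000893) and 1395925_s_at by -0.39 (adjusted p = 0.0274). The call of 1395925_s_at was lost without control 1 h replicate 1, control 6 h replicate 1 or control 6 h replicate 3 (adjusted p = 0.125, 0.0526 and 0.109). The untested probe set 1388280_a_at read 87.2, 114 and 111 at 0 h and 80.6, 82.4 and 65.5 at 6 h in control neurons.

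Dlg4, which encodes PSD95, a core scaffold of excitatory synapses, and Dlg1, which encodes SAP97 and takes part in AMPA receptor trafficking, were higher at 6 h in both arms. The brightest Dlg4 probe set, 1395468_at, read 1605, 1932 and 2339.6 at 0 h and 2508, 2493 and 2752 at 6 h in control neurons, and 1909.9, 1705 and 2364 and then 2606, 2772 and 2606 with RNAi. The 6 h arrays lay above the 0 h arrays in each arm, with a wide spread at 0 h. The rises were 0.42 and 0.43 on the log2 scale (SE 0.13, adjusted p = 0.0174 and 0.0149). The first was lost without control 0 h replicate 1 or control 6 h replicate 3 (adjusted p = 0.0968 and 0.0666), and the second without RNAi 0 h replicate 2 or RNAi 6 h replicate 2 (adjusted p = 0.0839 and 0.0511). Of the other tested Dlg4 probe sets, 1387210_at changed by 0.26 and 0.11 (adjusted p = 0.156 and 0.572, and 0.0351 for the first with the replicate block) and 1389901_at by 0.01 and 0.21 (adjusted p = 0.968 and 0.0953, and 0.0226 for the second without RNAi 0 h replicate 1). No Dlg4 probe set was called between the arms at any time. Dlg1 by 1388816_at read 1042, 907 and 934 at 0 h and 1265, 1144 and 1108 at 6 h in control neurons, and 1128, 1030.4 and 1095 and then 1541, 1438 and 1395 with RNAi. The 6 h arrays lay above the 0 h arrays in each arm, and the RNAi arrays lay above the control arrays at 6 h. It rose by 0.29 in control neurons and by 0.43 with RNAi (SE 0.07, adjusted p = 0.00626 and 0.000309). It was the only member called higher with RNAi, at 6 h by 0.32 (124.5% of control, adjusted p = 0.0095), a call lost without RNAi 6 h replicate 1 (adjusted p = 0.0512). With the replicate block it was also called at 0 h (0.18, adjusted p = 0.0159) and from 1 to 6 h in control neurons (0.14, adjusted p = 0.0297).

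**Figure D2:**
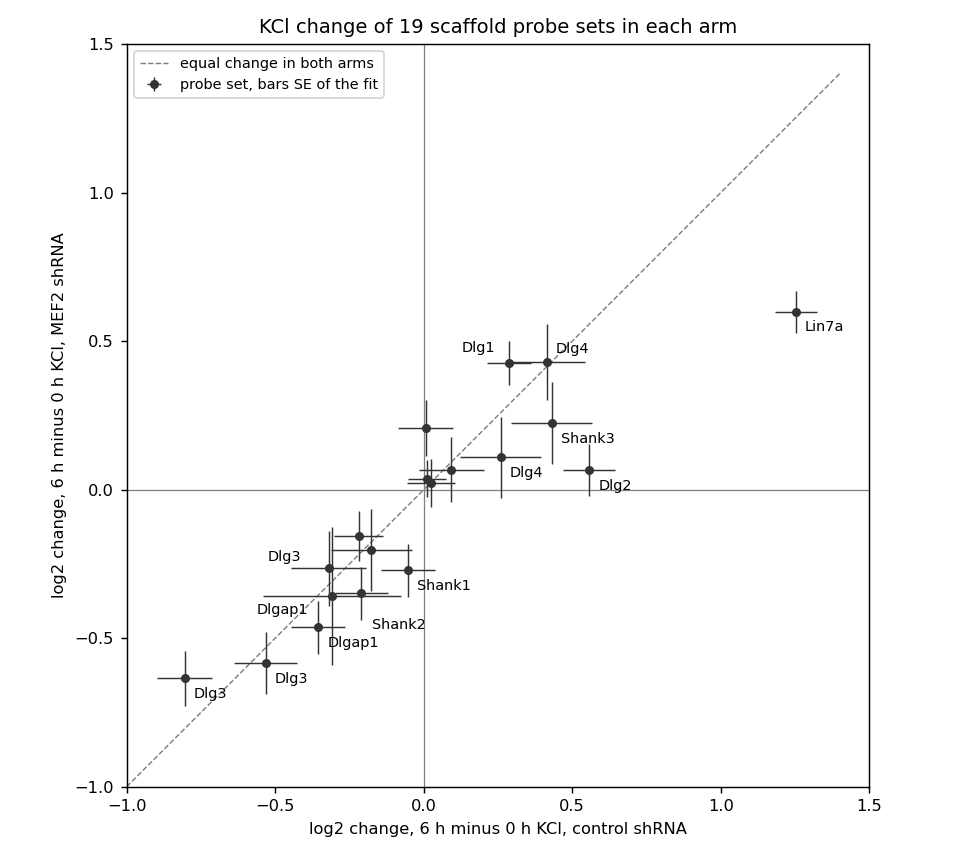
Log2 change from 0 to 6 h of KCl in the control arm (x axis) against that in the RNAi arm (y axis) for the 19 tested probe sets, with bars of 1 SE from the limma fit and a dashed line of equal change; gene names are given for changes beyond 0.25 in either arm. Lin7a at 1.25 and 0.60 lies farthest below the line, Dlg2 lies at 0.56 and 0.07, and the lowest Dlg3 probe set at -0.80 and -0.64.

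Among the Shank genes, Shank3 was called higher at 6 h than at 0 h in control neurons. Shank1 and Shank2 were each called lower at 6 h than at 0 h within the RNAi arm by their brightest probe set. Shank3 read 1025, 1094 and 1035 at 0 h, 919.7, 977 and 1197 at 1 h, and 1247, 1432 and 1591 at 6 h in control neurons. With RNAi it read 673, 709.6 and 732, then 626, 723 and 836, then 658, 891 and 949. The control 6 h arrays stood above the control arrays of other times, and at each time every RNAi array lay below every control array. Shank3 rose 1.35-fold from 0 to 6 h in control neurons (log2 0.43, SE 0.14, adjusted p = 0.0212). The call was lost without control 0 h replicate 1, control 0 h replicate 3, control 6 h replicate 2 or control 6 h replicate 3 (adjusted p = 0.0547, 0.0563, 0.0552 and 0.0971). With RNAi the change of 0.22 was not called (adjusted p = 0.226, 0.0461 with the replicate block, and 0.0313 without RNAi 6 h replicate 1), and the difference between the arms' changes was -0.21 (SE 0.19, adjusted p = 0.869). Shank2 by 1369777_a_at changed by -0.21 in control neurons (adjusted p = 0.0767, 0.0131 with the replicate block, and 0.0347 without control 6 h replicate 3) and was lower by -0.35 with RNAi (adjusted p = 0.00573). Shank1 by its brightest probe set, 1396040_at, changed by -0.05 in control neurons (adjusted p = 0.71) and was lower by -0.27 with RNAi (adjusted p = 0.0265), the last being lost without RNAi 0 h replicate 1, RNAi 0 h replicate 3, RNAi 6 h replicate 1 or RNAi 6 h replicate 2 (adjusted p = 0.0761, 0.0524, 0.0809 and 0.0536). The differences between the arms' 6 h changes were -0.14 for Shank2 and -0.22 for Shank1 (SE 0.13 for both, adjusted p = 0.864 and 0.71). Neither was called, so an unequal response was not shown.

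Dlgap1, the link between Dlg and Shank proteins, was lower at 6 h. By 1384197_at the control arrays read 1343, 1218 and 1235 at 0 h, 1628, 1466 and 1342 at 1 h, and 935, 993 and 1041 at 6 h. The RNAi arrays read 1005, 1127 and 1062, then 822, 942 and 981, then 725, 859 and 736. The 6 h arrays lay below the 0 h arrays in each arm, and at each time the RNAi arrays lay below the control arrays. From 0 to 6 h it fell by 0.35 in control neurons and by 0.46 with RNAi on the log2 scale (SE 0.09, adjusted p = 0.0052 and 0.000738). By 1387802_at it was lower by -0.22 in control neurons (SE 0.08, adjusted p = 0.0492). That call was lost without any 1 of 12 arrays (adjusted p = 0.0549 to 0.117), namely the 6 arrays compared, the 3 RNAi 6 h arrays, RNAi 0 h replicate 2, RNAi 1 h replicate 2 and control 1 h replicate 3. By 1370053_at the control arrays of replicate 1 stood apart, at 963 against 1949.5 and 1957 at 0 h and at 2622 against 1725 and 1878 at 1 h. Its 6 h change of -0.31 was not called (SE 0.23, adjusted p = 0.342) and was called without control 0 h replicate 1 (adjusted p = 0.0103).

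From 1 to 6 h in control neurons 9 of 19 member probe sets were called, 3 higher and 6 lower, against 31.8% of all tested probe sets (13.9% higher and 17.9% lower). Without the 3 probe sets that the filter favoured, 6 of 16 were called (37.5%), 2 higher and 4 lower. Lin7a, Dlg2 and Shank3 were higher by 1.16, 0.54 and 0.47 (adjusted p = 3.67e-08, 0.000213 and 0.016), so their rises came after the first hour. The lower ones were all 3 tested probe sets of Dlg3 and all 3 of Dlgap1, from -0.29 to -0.71, the largest being Dlgap1 1370053_at and Dlg3 1372041_at (adjusted p = 0.028 and 2.92e-05). Without control 1 h replicate 1 only 5 were called, beside 28.5% of all probe sets. Among those lost, 1370053_at had an adjusted p of 0.131, 1387802_at of 0.0717 and Shank3 of 0.0708. Shank3 was also lost without control 1 h replicate 2 or control 6 h replicate 3 (adjusted p = 0.0534 and 0.0776), 1370053_at without control 6 h replicates 1, 2 or 3 (adjusted p = 0.0625, 0.0747 and 0.0557) and 1387802_at without control 1 h replicate 3 (adjusted p = 0.0511). Shank2 1369777_a_at changed by -0.20 (adjusted p = 0.0981, 0.0182 with the replicate block, and 0.0466 without control 6 h replicate 3). In the RNAi arm no member was called at 1 h, where 3.19% of all probe sets were (1.14% higher and 2.04% lower) and 3 members had an unadjusted p under 0.05. At 6 h against 0 h in that arm 8 of 19 were called, 3 higher and 5 lower, against 36.4% of all probe sets (14.7% higher and 21.8% lower). Without the same 3 probe sets 6 of 16 were called (37.5%), 2 higher and 4 lower. Of the 8 called, the higher ones belonged to Lin7a, Dlg4 and Dlg1. The lower ones were 1372041_at and 1387393_at of Dlg3, 1384197_at of Dlgap1, and the brightest probe sets of Shank1 and Shank2.

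In control neurons the KCl changes at 6 h came with changes of cell type markers. The summed signal of 4 excitatory neuron markers was 11812 to 13460 at 0 h and 9733 to 10062 at 6 h, with Neurod6 called lower and Slc17a6 higher (log2 -0.72 and 0.51). Linear signals were summed, so Neurod6 (5139 to 9489 over all arrays) weighed most, beside Slc17a7, Slc17a6 and Camk2a at 2010 or less each. The median log2 change of the 4 markers in control neurons was 0.01. With RNAi the excitatory sum was 9098 to 10739 and then 8680 to 10264. The sum of 4 inhibitory neuron markers was 1907 to 2657 at 0 h and 2571 to 3581 at 6 h, with Gad1 called higher and Dlx1 lower (0.92 and -0.49), and with RNAi 1789 to 2199 and then 2423 to 2954. Gad1 was the brightest of these, at 865 to 2285 over all arrays. The sum over 8 pan-neuronal markers overlapped between these times, at 54786 to 59398 and 56041 to 58358. Of 7 astrocyte markers 1 was called lower, and of 4 tested endothelial and fibroblast markers 1 was called higher. The part of these shifts in the scaffold changes was not tested.

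The second question was what MEF2 knockdown does to the scaffold genes at each time. In silenced neurons 4 of 19 member probe sets were called, all lower with RNAi, against 13.3% of all tested probe sets (7.31% higher and 6.02% lower). At 1 h 5 of 19 were called, all lower, against 15.1% of all probe sets (6.37% higher and 8.73% lower). At 6 h 6 of 19 were called, 5 lower and 1 higher (Dlg1), against 15% of all probe sets (6.97% higher and 8.02% lower). Without Lin7a the 6 h count was 4 lower of 18. The members' median differences were -0.075, -0.144 and -0.085, beside 0.002, 0.008 and 0.006 for all probe sets, and 15, 14 and 13 of the 19 differences were below 0. With the replicate block 9 members were called at 1 h, all lower, and so were 23.8% of all probe sets in either direction, against 15.1% without it. The 0 h count was 2 without any 1 of control 0 h replicates 1 and 2, RNAi 0 h replicate 1, control 6 h replicate 2 and RNAi 1 h replicate 2. In those fits 9.25% to 12.7% of all probe sets were called. The 1 h count was 3 without RNAi 1 h replicate 1 or control 1 h replicate 3, beside 10.4% and 13.5% of all probe sets. The 4 genes lower at 0 h were Shank1, Shank3, Dlg2 and Dlgap1, the same 4 at 1 h, and these with Lin7a at 6 h.

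**Figure D3:**
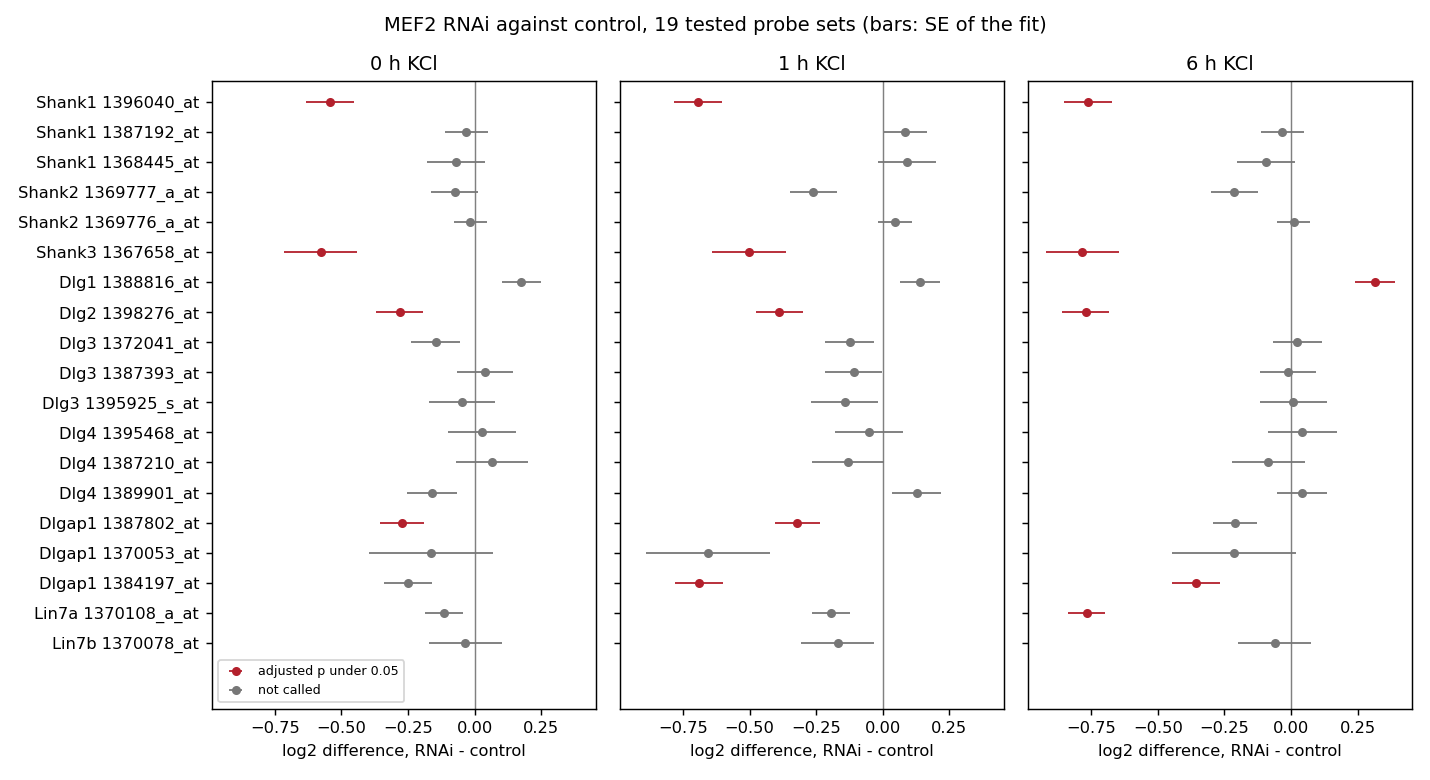
Log2 difference of RNAi minus control (x axis) at 0, 1 and 6 h of KCl for the 19 tested probe sets (rows), as points with bars of 1 SE from the limma fit; red points were called at an adjusted p under 0.05. Shank1 1396040_at, Shank3 and Dlg2 are red and left of 0 in all 3 panels, and Dlg1 is red and right of 0 at 6 h.

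Shank1 differed by its brightest probe set, 1396040_at, and not by its other 2. Its signals were 6124, 5176 and 6110.1 at 0 h, 6709, 6041 and 5909 at 1 h, and 5719, 5392 and 5633 at 6 h in control neurons. With RNAi they were 4136, 3854 and 3919.8, then 3307, 3949 and 4316, then 3179, 3324 and 3361. All 9 RNAi arrays lay below all 9 control arrays. The RNAi level was 68.6%, 61.7% and 58.9% of control at 0, 1 and 6 h (log2 -0.54, -0.70 and -0.76, SE 0.09, adjusted p = 0.000802, 8.53e-05 and 4.89e-05). Of the other Shank1 probe sets, 1387192_at differed by -0.03, 0.09 and -0.03, and 1368445_at by -0.07, 0.09 and -0.10, with no adjusted p under 0.571. Their signals spanned 484 to 615 and 290.2 to 422, with the arms overlapping at each time. The Shank1 difference thus rests on 1 of its 3 probe sets.

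**Figure D4:**
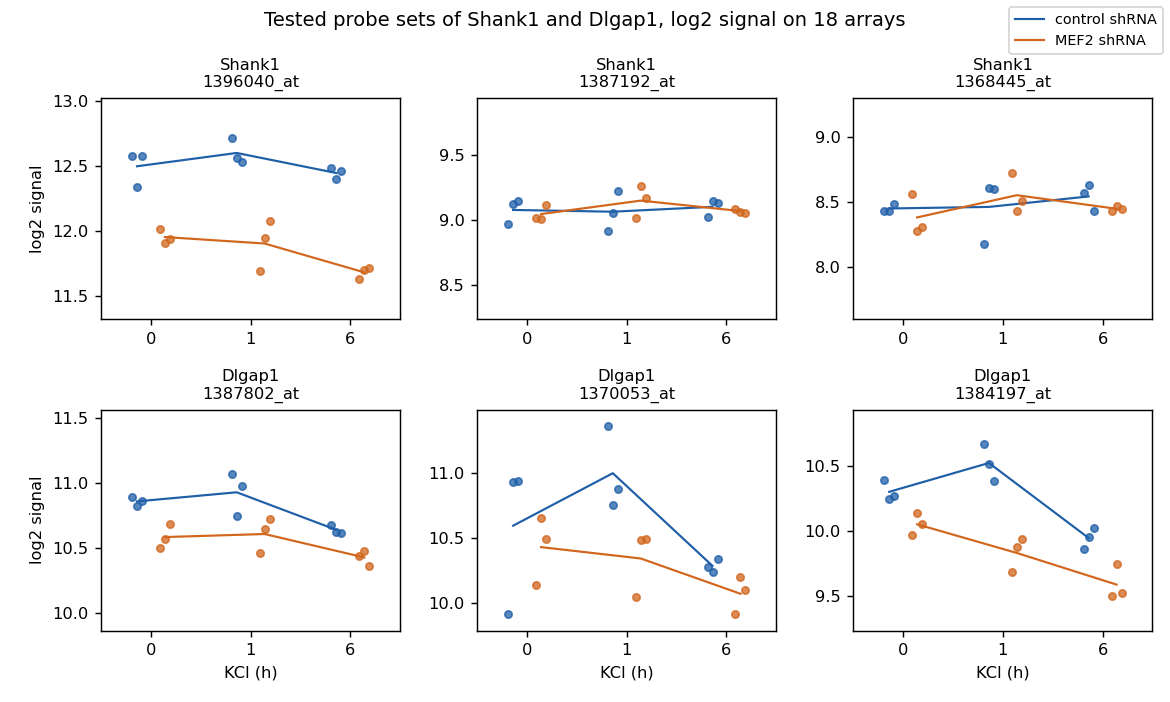
Log2 signal (y axis) by hours of KCl (x axis) for the 3 tested probe sets of Shank1 (top) and of Dlgap1 (bottom), 1 point per array and lines through the 3-array means, blue for control and orange for RNAi. The arms separate for Shank1 1396040_at and overlap for the other Shank1 probe sets, and for Dlgap1 1370053_at the control replicate 1 points lie lowest at 0 h and highest at 1 h.

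Shank3, with the array values given above, stood at 67.0%, 70.6% and 58.1% of control with RNAi at 0, 1 and 6 h (log2 -0.58, -0.50 and -0.78, SE 0.14, adjusted p = 0.0106, 0.0213 and 0.00121). The 1 h call was lost without RNAi 1 h replicate 1, RNAi 1 h replicate 2 or control 1 h replicate 3 (adjusted p = 0.107, 0.056 and 0.094). Shank2 by 1369777_a_at differed by -0.07, -0.26 and -0.21 and was not called (adjusted p = 0.657, 0.0622 and 0.131). With the replicate block it was called at 1 and 6 h (adjusted p = 0.00757 and 0.0242). It was also called without control 6 h replicate 1, at 1 h (adjusted p = 0.0402) and at 6 h (adjusted p = 0.0407). Its signals at 6 h were 1058, 1226 and 1313 in control and 948, 1133 and 1019 in RNAi neurons, with the arms overlapping. The other Shank2 probe set, 1369776_a_at, stayed within 250.8 to 286 on all arrays and was called in no comparison.

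Dlgap1 was lower with RNAi by its brightest probe set at 0 and 1 h and by another at 1 and 6 h. By 1387802_at the signals were 1898, 1807 and 1863 in control and 1451, 1516 and 1641 in RNAi neurons at 0 h, and 2143, 1714 and 2011 against 1406, 1598 and 1688 at 1 h, without overlap. The RNAi level was 82.7% and 80.1% of control (adjusted p = 0.0391 and 0.0155) and 86.4% at 6 h, which was not called (adjusted p = 0.106). The 0 h call was lost without any 1 of 7 arrays (adjusted p = 0.0506 to 0.116), namely the 3 control 0 h arrays, RNAi 0 h replicates 1 and 2, control 6 h replicate 2 and RNAi 1 h replicate 2. The 1 h call was lost without control 1 h replicate 1, RNAi 1 h replicate 1 or control 1 h replicate 3 (adjusted p = 0.0806, 0.0877 and 0.0526). By 1384197_at the level was 84.1% of control at 0 h, which was not called (adjusted p = 0.0826, and 0.0367 after quantile normalization), 61.9% at 1 h (adjusted p = 9.21e-05) and 78.0% at 6 h (adjusted p = 0.0136). The last was lost without RNAi 6 h replicate 1, RNAi 6 h replicate 3 or control 6 h replicate 3 (adjusted p = 0.0668, 0.0564 and 0.0604). By 1370053_at the 1 h difference of -0.66 was not called (SE 0.23, adjusted p = 0.0724), but was with the replicate block (adjusted p = 0.0345) and without control 0 h replicate 1 (adjusted p = 0.0113).

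Cell type markers also differed between the arms. The 4 summed excitatory neuron markers were 11812 to 13460 in control and 9098 to 10739 in RNAi neurons at 0 h, 12427 to 13115 and 8347 to 10206 at 1 h, and 9733 to 10062 and 8680 to 10264 at 6 h. Slc17a7 differed by -0.63 and -0.68 at 0 and 6 h, Camk2a by -0.46 and -0.41 at 1 and 6 h, and Neurod6 by -0.32 and -0.41 at 0 and 1 h, all called. The summed signal of 7 astrocyte markers was 32133 to 43066 in control and 38397 to 48223 in RNAi arrays. It was higher with RNAi in 3 of 3 same-numbered pairs at each time, with no single marker called. The sum of 5 endothelial and fibroblast markers was 2738 to 3441 in control and 1603 to 2658 in RNAi arrays, with Dcn called lower at each time. The 8 pan-neuronal markers, at 54786 to 61533 and 51616 to 60812, had no member called between the arms. The inhibitory neuron sum was 1872 to 3581 in control and 1747 to 2954 in RNAi arrays, with 1 of 3 tested markers called lower, at 6 h. The RNAi array had the higher inhibitory sum in 1, 0 and 0 of 3 same-numbered pairs at 0, 1 and 6 h, the higher pan-neuronal sum in 0, 2 and 0, and the higher excitatory sum in 0, 0 and 1. Summed oligodendrocyte lineage markers (9673 to 16465 and 10295 to 18578) and microglial markers (1200.0 to 1349 and 1187 to 1342) overlapped. The log2 difference between the 3′ and 5′ Gapdh control probe sets, a sign of RNA integrity, was 0.231 to 0.444 in control and 0.219 to 0.411 in RNAi arrays. The part of these marker differences in the scaffold differences was not tested.

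The third question was whether knockdown changed the response to KCl. At 1 h no member was called, nor was any of the 19567 probe sets (0%), and by limma 2 members and 691 of all probe sets had an unadjusted p under 0.05. At 6 h Lin7a alone was called, as given above. The next largest member difference at 6 h was that of Dlg2. A missed threshold does not show that the arms respond alike: the SE of a 6 h interaction ran from 0.09 to 0.33 among members.

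Probe sets of 1 gene were compared with one another for their KCl change at 6 h. In an exact permutation test over the 12 arrays at 0 and 6 h, within arm and two-sided, 5 of 9 pairs differed after adjustment over the 9 pairs. The brightest Dlg3 probe set fell by 0.43 more than 1395925_s_at, and the brightest Dlgap1 probe set changed by 0.22 more than 1384197_at, which fell further (both exact p = 0.005, the smallest the 400 arrangements can give, adjusted p = 0.0225). Shank2 1369777_a_at changed by -0.30 and Shank1 1396040_at by -0.24 relative to the dimmer 1369776_a_at and 1368445_at (adjusted p = 0.0338 for both). Dlg4 1395468_at changed by 0.24 relative to 1387210_at (adjusted p = 0.036). Folds of dim probe sets are understated, and the probe sets of a pair differed in mean signal. The means were 146 for 1395925_s_at beside 510 for the brightest Dlg3 probe set, 269 beside 1243 for Shank2, and 357 beside 4787 for Shank1. For Dlg4 they were 975 beside 2292, and for Dlgap1 1081 beside 1647. The part of signal level in these unequal changes was not tested. The other 4 pairs had adjusted p of 0.0675 to 0.475. The number of pairs fell to 2 without control 0 h replicate 1, control 6 h replicate 1, RNAi 6 h replicate 1 or RNAi 6 h replicate 2. Swapping labels only within same-numbered pairs gave none, but there the smallest adjusted p reached was 0.0703 over 64 arrangements. Where these probe sets lie in the transcripts is not given in the files used here, so no isoform is named.

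Other genes of the postsynaptic scaffold were counted by their brightest probe set, 26 tested of 32 listed. At 6 h of KCl in control neurons 8 were higher and 4 lower (30.8% and 15.4%), beside 15.9% and 21.7% of all probe sets. These shares of all are over probe sets, while the list has 1 per gene. With 1 probe set per gene, 41.6% of all were called in either direction, beside 46.2% of the list. In the RNAi arm these shares were 40% and 42.3%. The higher ones in control neurons were led by Sipa1l1, a GTPase-activating protein that turns Rap off in dendritic spines, at 0.94 (adjusted p = 2.93e-08), Magi3, a scaffold related to the Dlg proteins, at 1.07 (adjusted p = 1.44e-05), Lin7c at 0.48 and Homer3 at 0.45. The lower ones were Mpp3 at -0.53 (adjusted p = 0.000525), Pick1 and Grip1, which bind AMPA receptors, at -0.40 and -0.45, and Baiap2, an actin regulator, at -0.26. In the RNAi arm 5 were higher and 6 lower (19.2% and 23.1%), beside 14.7% and 21.8% of all probe sets, among them Sipa1l1 at 0.64, Homer3 at 0.76, Magi3 at 0.73 and Lin7c at 0.36, and Baiap2 at -0.75, Pick1 at -0.72, Mpp3 at -0.68 and Cttn, which binds actin, at -0.21. Lin7c, the remaining Lin7 gene, was thus higher at 6 h in both arms. Between the arms 4, 3 and 2 of 26 were called at 0, 1 and 6 h (15.4%, 11.5% and 7.69%), beside 13.3%, 15.1% and 15% of all probe sets. With 1 probe set per gene the shares of all were 14.9%, 17.1% and 17.2%. At 0 h Sipa1l1 and Baiap2 were higher with RNAi (0.40 and 0.39) and Dlgap3 and Homer3 lower (-0.65 and -0.36). At 1 h Sipa1l1 and Baiap2 were higher (0.26 and 0.33) and Cnksr2, an adaptor of Ras signalling at the synapse, lower (-0.79). At 6 h Cnksr2 and Dlgap3 were lower (-0.88 and -0.58, adjusted p = 0.00379 and 0.0144). None of these genes was called at 1 h of KCl in either arm or for an interaction.

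The genes most like the 3 members with the smallest adjusted p at 6 h were sought among 10825 genes by Pearson's r over the 6 group means of log2 signal. For Lin7a they were Ogfrl1 (r = 0.9987), Pwwp3b (0.9972) and Camkk2 (0.9970), for Dlg3 Cutc (0.9983), Golga5 (0.9980) and Phf20l1 (0.9980), and for Dlg2 Spag9 (0.9888), R3hdm1 (0.9872) and Rapgef2 (0.9843). Each r is among the 3 highest of 10825 over only 6 means, so the search itself favours values near 1. Shared regulation was not tested. The means come from the same 18 arrays, and likeness of shape does not mean a like size: Ogfrl1 spanned 0.28 log2 units where Lin7a spanned 1.37.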

How the data were processed

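RNA of 18 rat neuron cultures was read on Affymetrix arrays, from total RNA as biotin-labelled cRNA per the labels' protocols. The deposited values are linear intensities, 1 for each probe set. Their summarization and normalization are not given in the sources used here. Signals below the 20th percentile of all values (72.6) were set to that floor before log2 was taken, so folds of probe sets with such signals are understated. Every tested member probe set stayed above this floor on all 18 arrays, the lowest signal being 78.7 for Lin7a. Probe sets above their array's 40th percentile on at least 3 arrays were tested with limma 3.58.1 in R 4.3.3 (lmFit, eBayes) on all 18 arrays, 1 mean per group, 12 residual degrees of freedom, two-sided, with Benjamini-Hochberg adjustment at 0.05. Each group had 3 arrays, and SE come from the fit. The fit was tested on simulated data.

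Arrays with the same replicate number deviated together from their group means (r = 0.104 to 0.718 for every pair across groups), so the numbers were taken to pair the arrays. The main fit, which gave the calls and counts, held no replicate term and so did not use this pairing. The block was fitted as an alternative. Blocked values are given for each call that they change, and blocked counts of members called only for 1 h between the arms. The labels do not say what the numbers share.

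Symbols came from the platform annotation (20832 probe sets with 1 symbol, 436 with several, 9831 with none), and all 10 member genes matched RefSeq by gene ID. Named were all members, the 4 genes per direction with the smallest adjusted p of a list of related scaffolds, and the nearest patterns. Members and lists were chosen with earlier results of these data known. Alternatives were quantile normalization, log2 with a pseudocount of 16, no filter, 1 probe set per gene, fits of the compared groups alone, an eBayes trend, the replicate block and each array left out. Figures were drawn with matplotlib.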

Additional observations from a re-analysis of the deposited data

Results flagged for a closer look

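The 6 h response of Lin7a to KCl differed between the arms by the interaction test, with a log2 difference of -0.65 (RNAi change minus control change, SE 0.10, adjusted p = 0.0204 by limma). Both arms rose, by 0.60 and 1.25, and all 3 control 6 h arrays lay above all 3 RNAi 6 h arrays. Its adjusted p over 22 alternatives ran from 0.00829 to 0.0899. Lin7a passed the filter on low signals on its 3 control 6 h arrays alone, the group that this difference turns on; with no filter the adjusted p was 0.0165. No explanation was tested.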

How the results depend on the processing

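Of 190 member values (19 probe sets in 10 comparisons), 42 were called. Of these, 26 kept their call under every alternative in which they were tested, 16 lost it under at least 1, and none changed direction. The replicate block lost no call and added 15, and in all 19 uncalled values were called under some alternative. The count of members called from 1 to 6 h in control neurons was 5 with 1 probe set per gene, where only 10 were tested and 35.5% of all were called. The count lower with RNAi at 0 h was 2 without the filter and 2 with only the groups compared. The share of all probe sets called there fell too, from 13.3% to 7.4% and 7.45%. At 1 h the count lower with RNAi was 3 with only the groups compared and 9 with the replicate block. The shares of all probe sets were then 10.5% and 23.8%, against 15.1% in the main fit. The 6 h interaction count was 0 with only the groups compared, beside 0.0562% of all probe sets. The replicate block left 0 divergent probe set pairs. Leaving out 1 array at a time, with no block, gave 6 to 10 members called at 6 h against 0 h and 5 to 9 at 6 h against 1 h in control neurons, and 6 to 9 at 6 h against 0 h with RNAi. Beside these, 31.7% to 38.7%, 26.5% to 32.7% and 30.6% to 37.5% of all probe sets were called. Between the arms the counts were 2 to 4, 3 to 6 and 4 to 6 at 0, 1 and 6 h. The shares of all probe sets there were 9.25% to 14%, 10.4% to 15.8% and 9.46% to 16%. For the 6 h interaction the count was 0 to 1, beside 0.0154% to 0.251% of all probe sets, and 2 to 5 pairs were divergent. Besides the calls lost with single arrays, the lack of a filter ended those of Shank3 (adjusted p = 0.0505) and Dlgap1 1387802_at (0.07) at 6 h against 0 h and of Dlgap1 1370053_at (0.0733) and Dlg3 1395925_s_at (0.0605) at 6 h against 1 h in control neurons. It also ended the RNAi calls of Dlgap1 1387802_at (0.0599) and Dlg2 (0.0742) at 0 h and of Shank3 (0.0555) at 1 h. Fits of only the groups compared ended the RNAi calls of Dlgap1 1387802_at at 0 and 1 h (0.0753 and 0.112), Dlg2 at 0 h (0.145) and Shank3 at 1 h (0.0593), and in control neurons those of Dlg4 1395468_at at 6 h against 0 h (0.051) and Dlgap1 1387802_at at 6 h against 1 h (0.0599). An eBayes trend ended that of Dlgap1 1387802_at at 6 h against 0 h (0.0518). The causes of these shifts were not tested, except that fewer probe sets or arrays were used where stated, and that leaving out a control 6 h array took Lin7a below the filter. The 3 arrays per group limit the precision, and signals near the floor of 72.6 limit Lin7a.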
